A study of Mus musculus with 6 samples.

Results

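The nuclear genes for the subunits of the oxidative phosphorylation complexes were examined in the ventricles of sleep fragmented and undisturbed mice. Members were all array probes whose RefSeq accession maps to a symbol beginning Ndufa, Ndufb, Ndufc, Ndufs, Ndufv, Uqcr, Atp5 or Cox4 to Cox8, or to Sdha, Sdhb, Sdhc, Sdhd or Cycs, with the Ndufaf assembly factors left out. The rule took 117 of the 39429 probes on the array, which stand for 86 of its 20659 named genes. A probe was kept where its signal stood clear of background throughout at least 1 of the groups, which left 115 probes and 84 genes of the 25220 probes and 14548 named genes kept in all. No measured value entered the rule. The brightest such probe stood for its gene, and for all 84 genes that probe was above background on all 6 arrays. The 2 genes left out were Cox7b2 and Cox8c, which are isoforms known from testis and were above background on 0 arrays.

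The study compared 3 arrays from mice whose sleep was fragmented for 5 weeks with 3 arrays from mice left undisturbed. All were female C57BL/6N mice aged 21 weeks, and the labels name no genetic change in either group. Each array was hybridised with Cy3-labelled total RNA from the ventricles, with 1 sample per array. Nothing in the labels says whether each sample came from 1 animal, so the p-values describe the spread among the samples only, and part of it may be technical.

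Oxidative phosphorylation takes electrons from NADH at complex I and from succinate at complex II, passes them through complex III and cytochrome c to oxygen at complex IV, and uses the resulting proton gradient to make ATP at complex V. Most subunits are encoded in the nucleus and a core set in mitochondrial DNA. The beating heart draws most of its ATP from this pathway, and its cardiomyocytes are packed with mitochondria. The nuclear genes of the pathway are known to share promoter sites for NRF1, ETS factors of the GABP type, the estrogen-related receptors and YY1.

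Of the 84 genes, 69 had a RefSeq promoter window (GRCm38.p6), which runs from 250 bases before to 50 after a transcription start. The following short sites were searched on both strands, as GCGCATGC for the core of the NRF1 site, CCGGAAGT for the ETS site, TCAAGGTCA for the estrogen-related receptor (ERR) site and AAGATGGC for the YY1 site. None of these strings contains another. One window is shown for each site, as the 100 bases just before the start on the gene's strand, 5′ to 3′, with the site in capitals. Cycs encodes cytochrome c, Uqcr11 a small subunit of complex III, Atp5g3 a copy of the c subunit of ATP synthase and Atp5j the F6 subunit of its peripheral stalk. All 4 genes lie on the minus strand, at chr6:50566570-50566669, chr10:80406822-80406921, chr2:73911327-73911426 and chr16:84834977-84835076.

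Cycs, NRF1 site: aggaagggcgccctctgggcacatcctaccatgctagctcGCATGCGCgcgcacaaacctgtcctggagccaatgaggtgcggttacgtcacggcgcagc

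Uqcr11, ETS site: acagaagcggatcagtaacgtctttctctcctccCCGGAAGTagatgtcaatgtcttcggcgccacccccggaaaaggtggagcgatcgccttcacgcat

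Atp5g3, ERR site: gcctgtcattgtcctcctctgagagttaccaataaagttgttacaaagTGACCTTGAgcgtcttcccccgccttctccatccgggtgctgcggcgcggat

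Atp5j, YY1 site: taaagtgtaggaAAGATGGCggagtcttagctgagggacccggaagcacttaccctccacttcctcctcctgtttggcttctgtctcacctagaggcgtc

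The sites in Cycs and Atp5g3 read as the reverse complement of the letters searched. The first base of the site lies 60 bases before the start in Cycs, 66 in Uqcr11, 52 in Atp5g3 and 88 in Atp5j, for which 1 of 2 windows is shown. Counted over windows, the NRF1 letters stood in 14.9% of the members' 74 windows and in 2.71% of all 32851 windows. The YY1 letters stood in 13.5% and 2.75%, the ETS letters in 6.76% and 3.89%, and the ERR letters in 2.7% and 0.423%. By gene, 11 members held the NRF1 letters, 10 the YY1 letters, 5 the ETS letters and 2 (Atp5g3 and Sdhd) the ERR letters. Among the named genes above background on this array, 5.07% held the NRF1 letters, 4.59% the YY1 letters, 7.58% the ETS letters and 0.373% the ERR letters, so the ETS share of the members (7.25%) was close to that of other genes measured here. The YY1 letters fell in 7 of 32 genes of complex I and 3 of 15 of complex V, and in 0 of 13 of complex IV. A match to these letters is a description of the window, not a binding site.

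Across the whole data set, signal was measured well above background for 59.2% to 72.6% of probes per array, and no spot was saturated. Sleep fragmented replicate 1 was the dimmest array, with a 75th percentile of 123 units of processed signal against 204 to 252 on the others. Per the file headers, all sleep fragmented arrays were scanned together and all controls in another scan, so scan and group cannot be told apart. All 10 cardiomyocyte markers searched for were above background on all 6 arrays. The atrial markers Myl4, Myl7 and Nppa were highest on replicate 2 of each group, with the 4 measured atrial markers summing to 298 and 214 times the array's 75th percentile there and to between 15.5 and 61.2 on the other 4 arrays.

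Levels below are log2 of the processed signal minus the log2 of the array's 75th percentile, and differences are sleep fragmented minus control. Levels are compared for the same probe only, never between probes. With limma's moderated test and Benjamini-Hochberg adjustment over all kept probes, 0 of the 84 genes differed between groups at an adjusted p under 0.05, and 0 did so under quantile scaling, which gives every array the same distribution of values. The same held for all probes, where the share called was 0% under either scaling. The smallest adjusted p among the members was 0.938 by limma under 75th percentile scaling and 0.997 under quantile scaling. At an unadjusted p under 0.05, 0 of 84 genes passed under either scaling, beside 2.96% of all named genes under 75th percentile scaling and 3.53% under quantile scaling.

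Log2 differences of the 84 genes ran from -0.22 (Sdha) to 0.21 (Atp5g1), which is from 0.860-fold to 1.16-fold. Standard errors lay between 0.17 and 0.29. For 51 genes the 95% interval of the difference stayed within 1.5-fold in either direction, and under quantile scaling this held for 79 genes. These are 60.7% and 94.0% of the members, beside 36.0% and 55.3% of all named genes. The median standard error was 0.214 for the members and 0.215 for all named genes under 75th percentile scaling, and 0.155 and 0.184 under quantile scaling. A change smaller than these intervals was not detectable with 3 arrays a group.

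**Figure D1:**
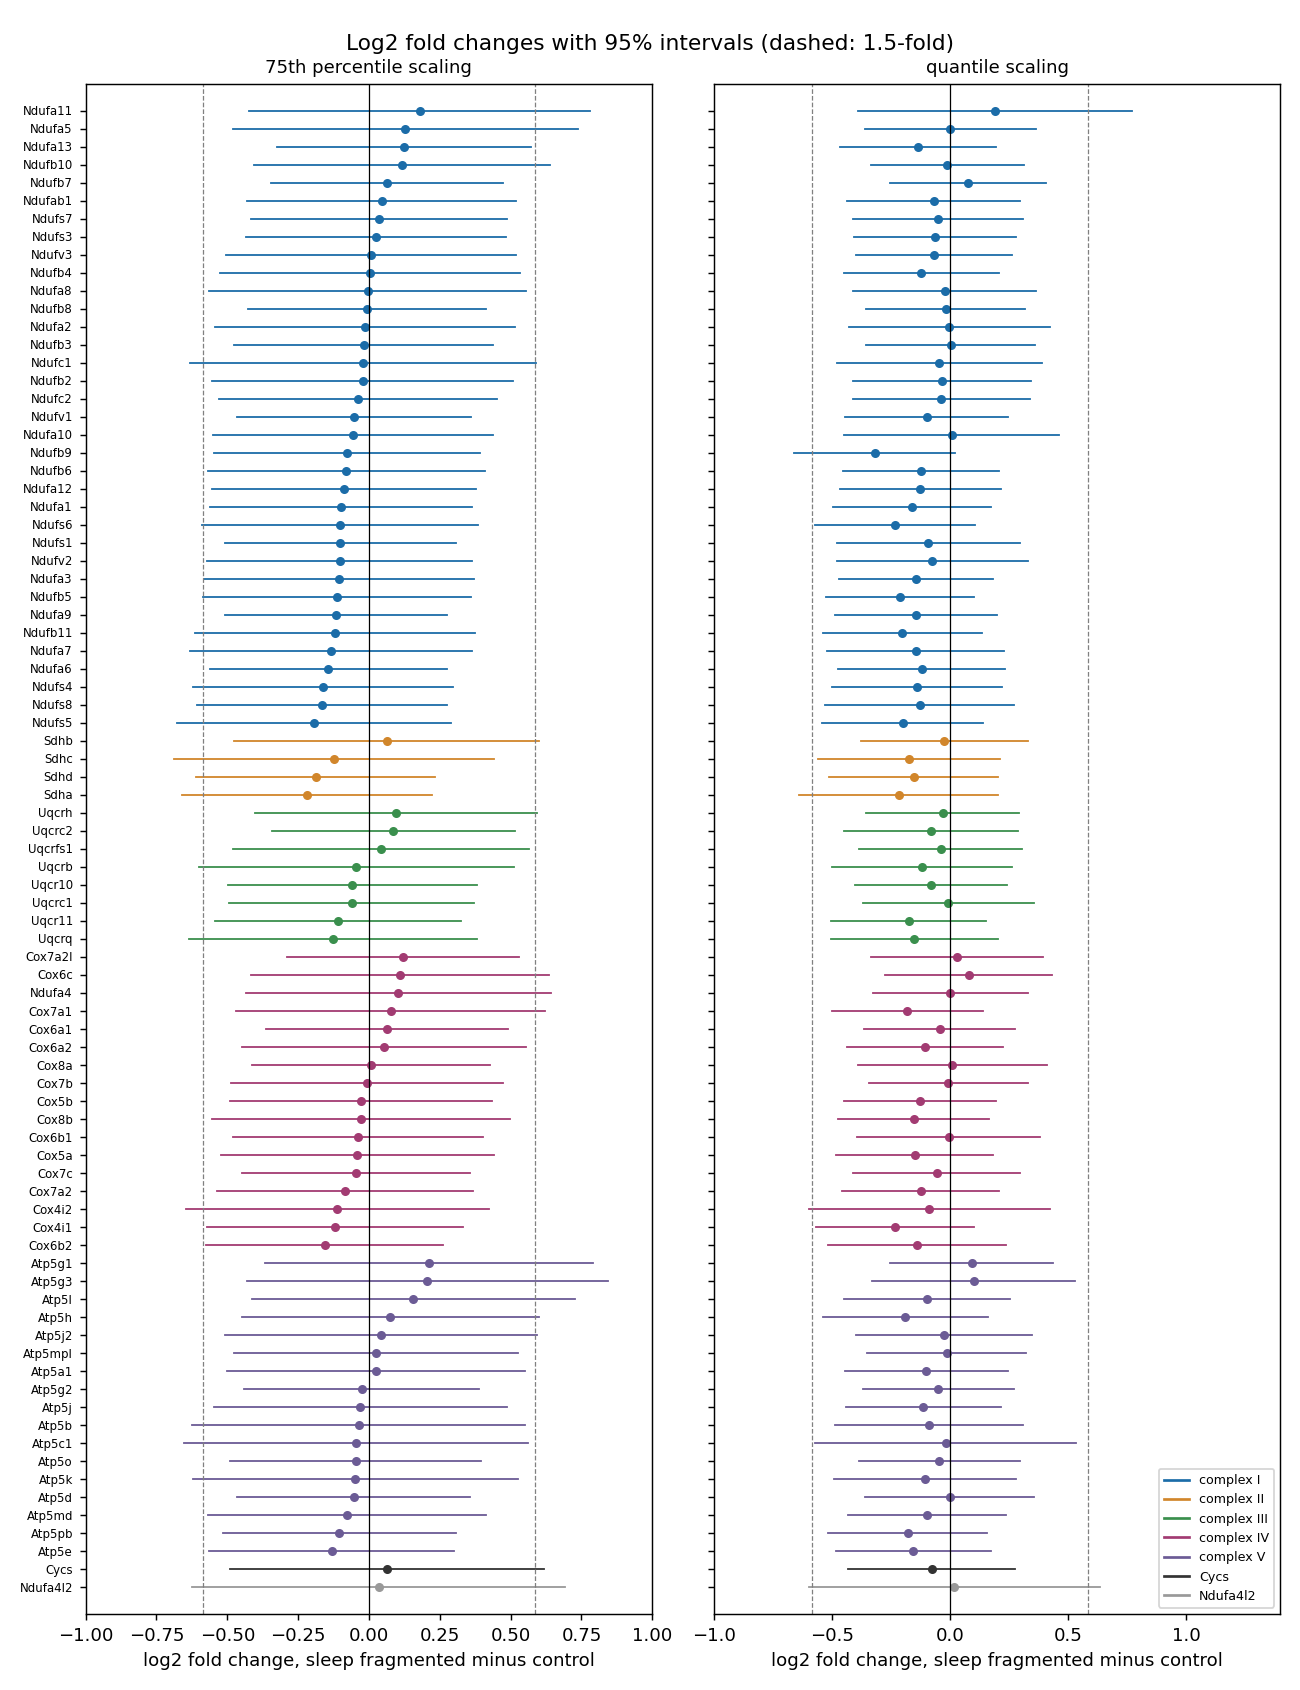
Log2 fold change of 83 of the 84 genes (sleep fragmented minus control, x axis) with its 95% interval from limma, grouped by complex and ordered within it, under 75th percentile scaling (left) and quantile scaling (right); dashed lines mark 1.5-fold. All intervals span 0 under either scaling, and the points lie between -0.22 and 0.21 on the left and between -0.32 and 0.19 on the right.

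More members lay below their control mean than above it, none past the test. The difference was negative for 54 genes and positive for 30, with a median of -0.04, beside 41.3% negative and a median of 0.05 over all named genes. Under quantile scaling 72 of the 84 were negative with a median of -0.09, beside 50.4% negative and a median of 0.00. The members' median lay below that of all named genes by 0.09 under both scalings. Under 75th percentile scaling without sleep fragmented replicate 2, the members' median lay above that of all named genes by 0.02. Brightness bears on this comparison, because 74 of the 84 genes lay in the brightest 10% of kept probes. The 1481 named genes in that bright class included those 74 members. The class had a median of -0.04 with 60.1% negative, and -0.03 with 57.4% negative under quantile scaling. Under 75th percentile scaling the members therefore sat close to the bright class as a whole. Under quantile scaling their median was lower than that of the class, a difference that was not tested.

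Under 75th percentile scaling the direction of the members' median rested on single arrays. Arrays were left out under this scaling only, so the same was not examined under quantile scaling. On each array the median over the 84 genes, relative to the control mean, was 0.26, -0.27 and -0.09 in sleep fragmented replicates 1, 2 and 3, and 0.12, -0.16 and 0.04 in control replicates 1, 2 and 3. The 3 sleep fragmented arrays thus spanned a wider range than the gap between the groups. Sleep fragmented replicate 1 was the highest of all 6 arrays for 64 genes, and sleep fragmented replicate 2 the lowest of all 6 for 64 genes. Without sleep fragmented replicate 1 the median was -0.18 with 80 genes lower, and without sleep fragmented replicate 2 it was 0.09 with 17 genes lower. It was 0.04 with 35 genes lower without control replicate 1.

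**Figure D2:**
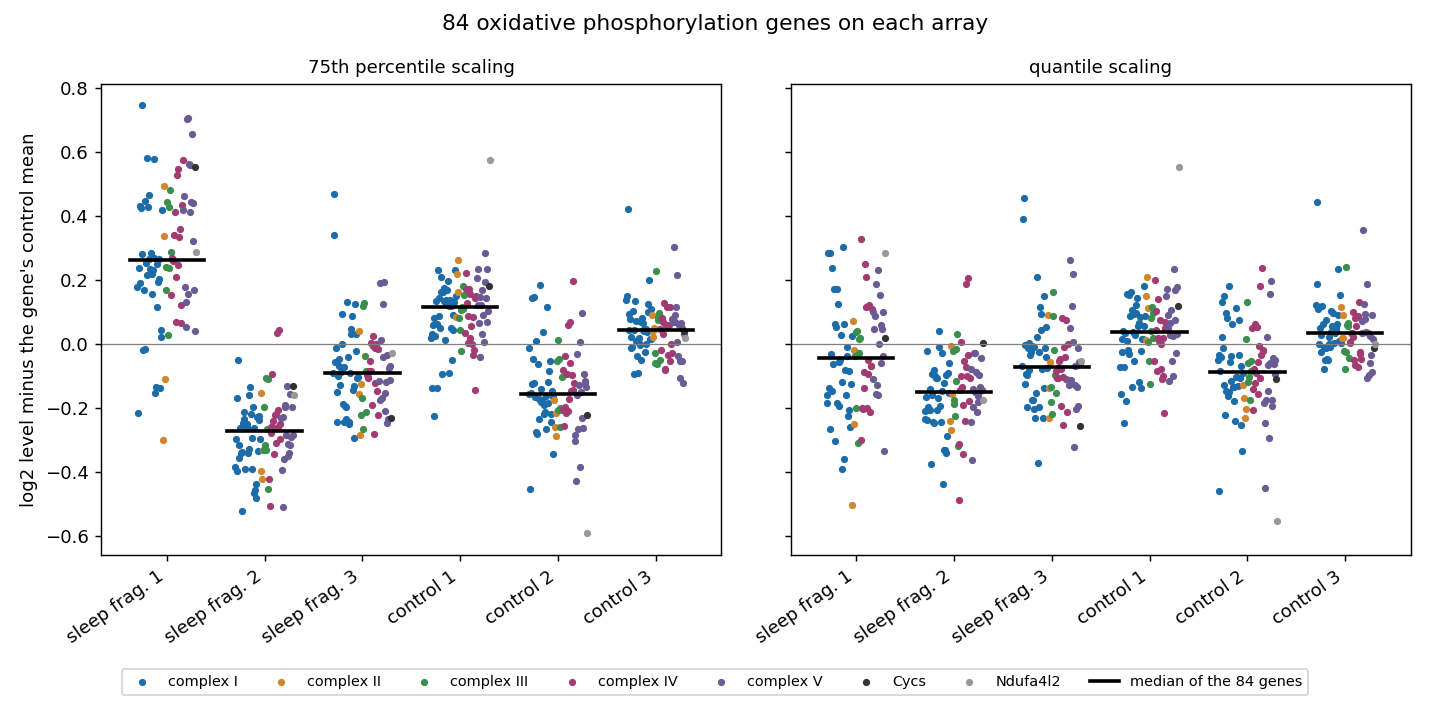
Log2 level of each of the 84 genes minus its own control mean (y axis) on each of the 6 arrays (x axis), coloured by complex, with a bar at the median, under 75th percentile scaling (left) and quantile scaling (right). On the left the medians run from -0.27 on sleep fragmented replicate 2 to 0.26 on sleep fragmented replicate 1, and on the right all 6 lie between -0.15 and 0.04.

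Under 75th percentile scaling the subunit genes moved largely together from array to array. Under quantile scaling the array medians drew in to -0.04, -0.15 and -0.07 in the sleep fragmented group and to 0.04, -0.09 and 0.04 in the controls. The median standard deviation within a group was 0.25 per member gene under 75th percentile scaling, 0.13 under quantile scaling, and 0.12 when each array was centred on the members' own median. Over all named genes it was 0.26, 0.22 and 0.31. Centring on the members thus narrowed their spread and widened that of other genes. Because it uses the members' own values, part of that contrast is built in. The spread was not computed for other bright genes alone, so the shared movement is not shown to be particular to the members.

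Other cell types' markers differed between arrays in the same pairs. The arrays lowest in the members within each group, sleep fragmented replicate 2 and control replicate 2, were the highest in markers of atrial tissue, fat and nerve. The 4 measured of 5 atrial markers had a median log2 level relative to the control mean of 3.03 and 2.20 on these arrays and between -1.93 and 0.34 on the other 4. Sln was above background on 4 arrays at most and was not kept. For the 5 measured of 9 adipocyte markers the medians were 1.88 and 1.20 against -0.94 to -0.13, with summed levels of 75.8 to 128 in the sleep fragmented group and 82.1 to 107 in the controls, the highest sum being that of sleep fragmented replicate 1. Plin1, Cidec and Ucp1 were above background on 4 arrays at most and Lep on 0. All 4 nerve markers were measured, with medians of 1.00 and 0.65 against -0.68 to 0.03 and summed levels of 1.13 to 3.79 and 1.09 to 2.41. The part of these cells in the members' levels was not tested. With both arrays left out, the members' median was 0.01 with 40 genes lower.

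Under 75th percentile scaling the cardiomyocyte markers, like the members, were highest on sleep fragmented replicate 1 and lowest on replicate 2 of each group. Their median relative to the control mean was 0.65, -0.25 and 0.05 in the sleep fragmented group and 0.11, -0.17 and 0.09 in the controls. Under quantile scaling it was -0.08, -0.16 and -0.02 against 0.04, -0.08 and 0.05, so replicate 1 was no longer the highest, and the median group difference of these markers turned from 0.15 to -0.07. The summed level of these 10 markers ranged from 882 to 1541 in the sleep fragmented group and from 906 to 1094 in the controls. Fewer cells of a type and less RNA per cell cannot be told apart in whole ventricle. Erythroid markers had higher values in the sleep fragmented group, none past limma's adjusted threshold, with unadjusted limma p-values under 0.05 for 4 of 5 and summed levels of 166 to 403 against 107 to 122, and their part in the members' values was not tested. All 7 fibroblast and matrix markers were measured, and all 7 had positive differences under both scalings (medians 0.42 and 0.47), with 0 at an unadjusted limma p under 0.05. Their median relative to the control mean was 0.58, 0.93 and -0.02 in the sleep fragmented group and 0.14, -0.11 and -0.08 in the controls. Their summed level was 104 to 178 in the sleep fragmented group and 104 to 117 in the controls, and their part in the members' values was not tested either.

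**Figure D3:**
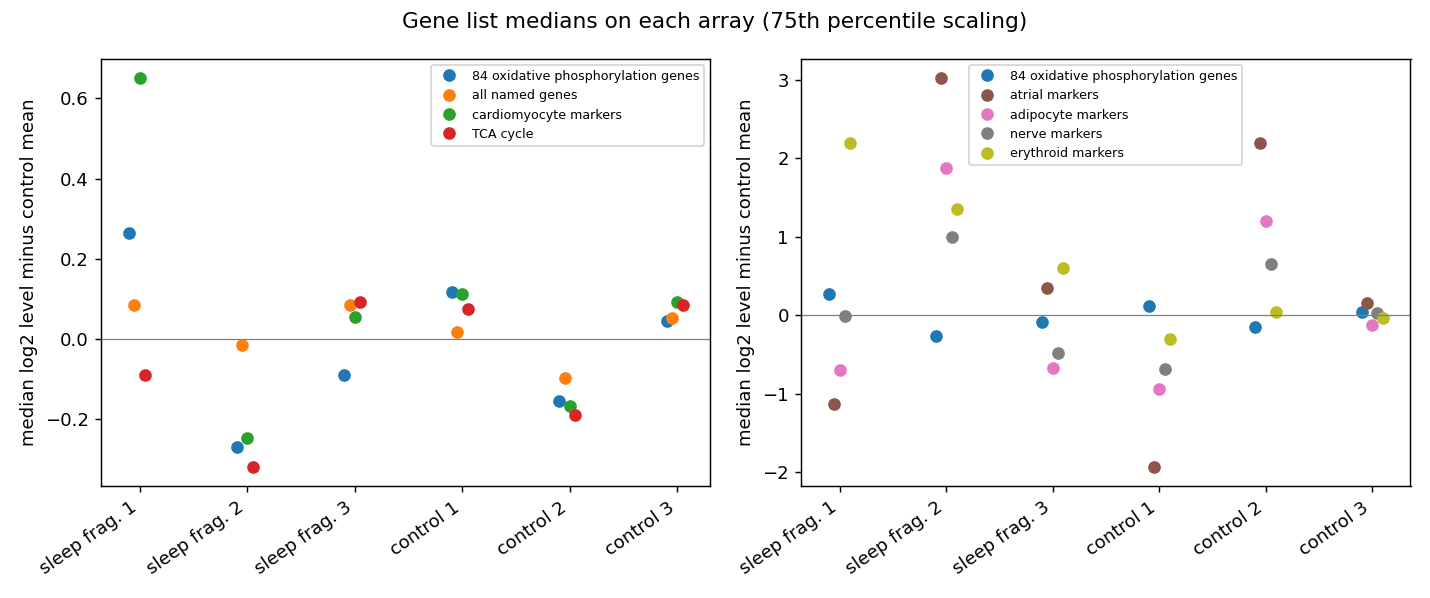
Median log2 level of gene lists relative to their control mean (y axis, 75th percentile scaling) on each array (x axis); the left panel sets the 84 genes beside all named genes, cardiomyocyte markers and TCA cycle genes, and the right panel beside atrial, adipocyte, nerve and erythroid markers. Sleep fragmented replicate 2 and control replicate 2 are lowest in the 84 genes within their groups and highest in atrial markers, at 3.03 and 2.20.

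Complex I, the NADH dehydrogenase, contributed 36 genes with a median log2 difference of -0.06 (26 lower) and of -0.09 under quantile scaling (31 lower). The 7 core genes, whose products carry out the electron transfer, had a median of -0.10, and the 29 supernumerary genes one of -0.04. Under quantile scaling the order turned, with -0.09 for the core and -0.12 for the supernumerary genes. Ndufs8, a core subunit with iron-sulfur clusters, was at 2.06, 1.86 and 2.17 against 2.24, 1.95 and 2.39, a difference of -0.16 ± 0.20 (SE) within overlapping groups.

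Among the supernumerary subunits, Ndufs5 had the smallest unadjusted p. It stood at 5.69, 5.02 and 5.21 in the sleep fragmented replicates and at 5.55, 5.42 and 5.54 in the controls. Replicate 1 of the sleep fragmented group was above every control while the other 2 were below all of them, and the difference was -0.19 ± 0.21 (SE; limma adjusted p = 0.938). Ndufa11, which helps hold the membrane arm together, had the highest difference of complex I at 0.18 ± 0.27 (SE). Its values of 1.26, 0.86 and 1.49 against 1.06, 0.57 and 1.45 overlapped, with replicate 2 lowest in each group. Ndufa4l2, a relative of Ndufa4 that is induced by hypoxia and is no subunit of complex I, was at 0.28, -0.17 and -0.04 against 0.56, -0.60 and 0.01, so the controls alone spanned more than the groups differed (0.03 ± 0.29, SE).

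Complex II, the succinate dehydrogenase that also serves the TCA cycle, had the lowest median of the 5 complexes at -0.16, or -0.16 under quantile scaling, over its 4 genes. With 1 array left out under 75th percentile scaling it ran from -0.28 (without control replicate 2) to -0.04 (without sleep fragmented replicate 2). The medians of the other complexes changed sign with the array left out, from -0.20 to 0.06 for complex I, -0.18 to 0.08 for III, -0.16 to 0.09 for IV and -0.17 to 0.14 for V, lowest without sleep fragmented replicate 1 and highest without sleep fragmented replicate 2. Sdha, the flavoprotein that binds succinate, was at 5.39, 5.30 and 5.73 in the sleep fragmented replicates and at 5.78, 5.52 and 5.78 in the controls. Replicates 1 and 2 of the sleep fragmented group lay below all controls and replicate 3 among them (-0.22 ± 0.20, SE; limma adjusted p = 0.938). Sdhd, a membrane anchor, was at 5.05, 4.83 and 5.03 against 5.32, 4.94 and 5.21, with a difference of -0.19 ± 0.19 (SE). Only sleep fragmented replicate 2 lay below the lowest control. Sdhc, the other anchor, was at 6.41, 5.65 and 5.79 against 6.34, 5.79 and 6.09 (-0.12 ± 0.25, SE). Sdhb, which carries the iron-sulfur clusters, was at 6.69, 6.04 and 6.04 against 6.41, 5.93 and 6.23 (0.06 ± 0.24, SE). Both genes were highest on sleep fragmented replicate 1, and their groups overlapped. Under 75th percentile scaling 3 of the 4 genes were negative and Sdhb was positive, but the other kept probe of Sdhb differed by -0.06. All 4 were negative under quantile scaling, where the other kept probe of Sdhc differed by 0.02.

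Complex III, the cytochrome bc1 complex, had 8 genes with a median of -0.05 (5 lower), and all 8 were negative under quantile scaling with a median of -0.08. Uqcr11 was at 6.28, 5.78 and 5.94 against 6.16, 6.13 and 6.06 (-0.11 ± 0.19, SE, limma adjusted p = 0.946). Sleep fragmented replicate 1 was the highest of the 6 arrays and the other 2 were the lowest. Uqcrq, which is known to bind near cytochrome b, was at 5.85, 5.11 and 5.35 against 5.72, 5.46 and 5.51 (-0.13 ± 0.23, SE), with the same order. Uqcrc2, a core protein, went the other way at 7.06, 6.72 and 6.95 against 6.94, 6.62 and 6.91 (0.09 ± 0.19, SE). The Rieske iron-sulfur protein Uqcrfs1 differed by 0.04 ± 0.23 (SE).

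Cycs, the mobile carrier between complexes III and IV, was at 7.23, 6.54 and 6.44 in the sleep fragmented replicates and at 6.85, 6.45 and 6.71 in the controls. The sleep fragmented group held both the highest and the lowest of the 6 values, and the difference was 0.06 ± 0.25 (SE; limma adjusted p = 0.971). Its 3 probes disagreed in sign, from -0.10 to 0.19. Cyc1, the cytochrome of complex III that lies outside the symbol rule, was at 5.02, 4.71 and 5.22 against 5.05, 4.42 and 5.05 (0.14 ± 0.24, SE).

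Complex IV, cytochrome c oxidase, had 17 genes with a median of -0.03 (10 lower) and of -0.09 under quantile scaling (13 lower). They include Ndufa4, now known as a subunit of it, and Cox7a2l, counted by its symbol though no subunit. With accepted subunits only, the median was -0.03 under 75th percentile scaling. Several subunits of the complex exist as a heart and muscle form and a form of other tissues. The muscle forms Cox6a2, Cox7a1 and Cox8b differed by 0.05 ± 0.22, 0.08 ± 0.24 and -0.03 ± 0.23 (SE). Their counterparts Cox6a1, Cox7a2 and Cox8a differed by 0.07 ± 0.19, -0.08 ± 0.20 and 0.01 ± 0.19 (SE). All 6 differences were smaller than their errors. Cox7a1, for example, was at 7.73, 6.88 and 7.18 against 7.24, 7.02 and 7.30, and the sleep fragmented group again held the highest and the lowest array. Under quantile scaling Cox7a1 turned to -0.18 ± 0.14 (SE) with no overlap between groups.

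Cox4i1, the common form of subunit 4, was at 6.76, 6.19 and 6.51 against 6.64, 6.53 and 6.66 (-0.12 ± 0.20, SE, limma adjusted p = 0.944). Its lung and hypoxia form Cox4i2 was at 1.81, 1.03 and 1.44 against 1.76, 1.33 and 1.52 (-0.11 ± 0.24, SE). In both genes replicate 1 of the sleep fragmented group was the highest array and replicate 2 the lowest. Cox6b2, best known from testis, was at 1.08, 0.67 and 0.82 against 1.03, 1.07 and 0.93 (-0.16 ± 0.18, SE), and its common counterpart Cox6b1 differed by -0.04 ± 0.19 (SE). Cox7a2l, a factor of respiratory supercomplexes rather than a subunit, differed by 0.12 ± 0.18 (SE), but its 3 probes ran from -0.16 to 0.12.

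**Figure D4:**
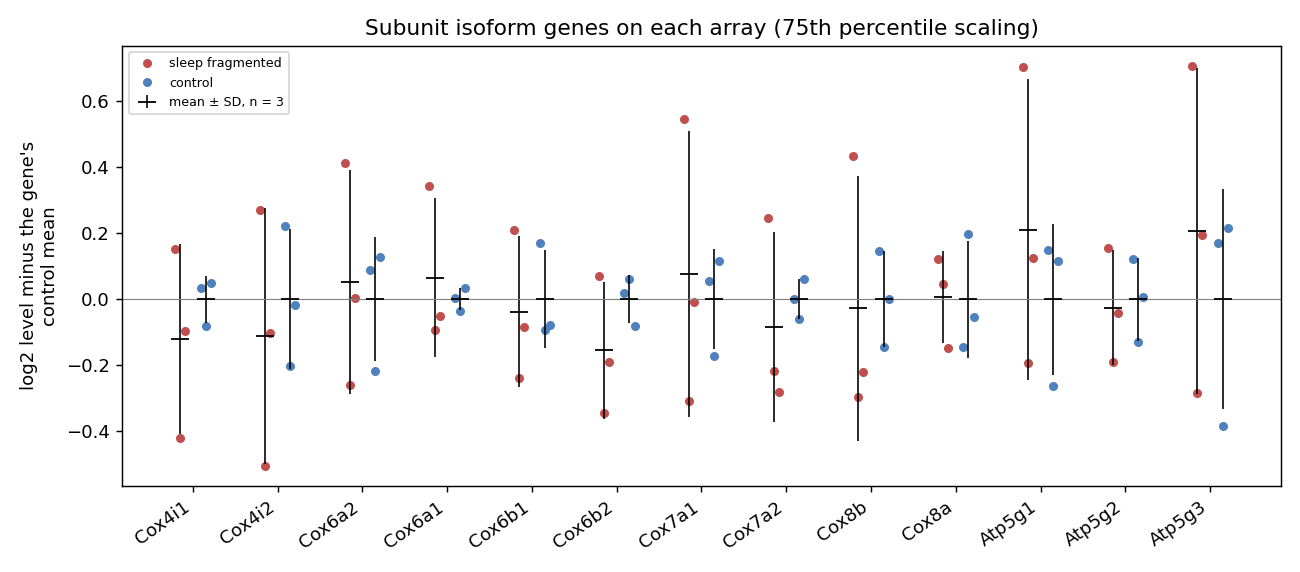
Log2 level minus the gene's control mean (y axis, 75th percentile scaling) for 13 genes of subunit isoforms (x axis), with the 3 sleep fragmented arrays in red, the 3 control arrays in blue, and the mean ± SD of each group in black. The groups overlap for every gene shown, and the sleep fragmented arrays spread more widely than the controls for most of them.

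Complex V, the ATP synthase, had 17 genes with a median of -0.03 (10 lower) and of -0.09 under quantile scaling (15 lower). The c ring, which turns in the membrane as protons pass, is encoded by 3 genes for the same mature protein. Atp5g1 was at 7.29, 6.39 and 6.71 against 6.74, 6.33 and 6.71 (0.21 ± 0.26, SE, limma adjusted p = 0.938). Atp5g3, whose promoter window is shown above with its ERR letters, was at 7.18, 6.19 and 6.67 against 6.64, 6.09 and 6.69 (0.21 ± 0.28, SE). Both had their highest value on sleep fragmented replicate 1, without which the differences were -0.03 and -0.04. Atp5g2 was at 5.95, 5.60 and 5.75 against 5.91, 5.66 and 5.80 (-0.03 ± 0.18, SE).

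The 5 genes of the catalytic F1 part had a median of -0.05. Atp5e, its epsilon subunit, was at 5.94, 5.45 and 5.64 against 5.77, 5.78 and 5.87 (-0.13 ± 0.19, SE; limma adjusted p = 0.944), with 2 sleep fragmented arrays below all controls and 1 above them. Atp5a1 and Atp5b, the alpha and beta subunits, differed by 0.02 ± 0.23 and -0.04 ± 0.26 (SE). The 4 genes of the peripheral stalk, Atp5j among them, had a median of -0.04, or -0.15 under quantile scaling, where all 4 were negative. The F1 median under quantile scaling was -0.09.

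How many genes had fully separated groups depended on the scaling. Under 75th percentile scaling 0 of the 84 genes had groups that did not overlap. Beside this, 3.97% of all named genes were lower and 3.64% higher without overlap. In the brightest class, members included, these shares were 5.48% and 2.03%. Under quantile scaling 9 genes (10.7%) were lower without overlap and 0 higher, beside 4.98% and 3.26% of all named genes and 5.54% and 3.38% of named genes in the brightest class. These 9, named after their values were seen, were Ndufb5, Ndufb9, Ndufb11, Ndufs5, Uqcr11, Cox4i1, Cox7a1, Cox8b and Atp5pb.

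The clearest of them was Ndufb9, a supernumerary subunit of the membrane arm. Its quantile-scaled log2 level was 14.44, 14.64 and 14.46 in the sleep fragmented replicates and 14.93, 14.70 and 14.87 in the controls, a difference of -0.32 ± 0.15 (SE; limma adjusted p = 0.997). Under 75th percentile scaling its difference was -0.08 ± 0.21 (SE), with overlapping groups. Cox4i1 stood at 14.03, 14.01 and 14.24 against 14.27, 14.38 and 14.33 on the quantile scale (-0.23 ± 0.15, SE), and Ndufb5 at 13.92, 13.90 and 13.88 against 14.15, 14.07 and 14.11 (-0.21 ± 0.14, SE). In each case all 3 sleep fragmented arrays were lower, and none passed limma's adjusted threshold.

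Several genes were measured by more than 1 kept probe. Of 23 such genes, Cycs, Cox7a2l, Atp5j2 and Uqcrb had probes of opposite sign lying farthest apart. The probes of Atp5j2, the f subunit of ATP synthase, differed by -0.17 and 0.04 between groups, and those of Uqcrb, a subunit of complex III, ran from -0.17 to 0.03. These disagreements were as large as most members' differences.

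Under 75th percentile scaling, genes that build or regulate the complexes gave 1 value past an unadjusted limma p of 0.05. Of 45 assembly factors searched for, 41 were measured with a median difference of -0.09, 33 were negative (41.3% over all named genes), and 1 was lower and 0 higher at that p, beside 2.96% of all named genes in either direction. Without overlap, 4 of the 41 were lower (3.97% over all named genes) and 0 higher. Under quantile scaling 2 of the 41 were lower and 0 higher at that p, beside 3.53% of all named genes in either direction. There, 3 were lower without overlap (4.98% over all named genes) and 0 higher. The gene at that p under 75th percentile scaling was Ndufaf8, which acts in building complex I. It was at 1.65, 1.49 and 1.47 in the sleep fragmented replicates and at 2.22, 2.18 and 1.90 in the controls, with no overlap (-0.56 ± 0.18, SE; limma adjusted p = 0.938). Ttc19, an assembly factor of complex III, was also fully separated, at 1.67, 1.51 and 1.89 against 2.14, 2.16 and 1.97 (-0.40 ± 0.18, SE; limma adjusted p = 0.938).

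All 16 regulators searched for were measured, with a median of -0.08, 9 negative and 0 at an unadjusted p under 0.05. Without overlap, 2 of the 16 were lower (3.97% over all named genes) and 0 higher. Under quantile scaling 1 was lower without overlap (4.98% over all named genes) and 0 higher. Ppargc1a, the coactivator PGC-1α, was at 3.79, 3.99 and 4.34 against 4.31, 3.50 and 3.79 (0.17 ± 0.25, SE), and its partner Esrra, the receptor ERRα, differed by -0.09 ± 0.22 (SE). Groups overlapped in both. NRF1 and GABPA are the factors known to bind the NRF1 and ETS letters shown above. Nrf1 differed by -0.38 ± 0.23 and Gabpa by -0.24 ± 0.21 (SE), with overlapping groups and no value past the test. Tfam, which packages and transcribes mitochondrial DNA, was at 1.12, 1.24 and 1.26 against 1.28, 1.52 and 1.44, separated without overlap (-0.21 ± 0.17, SE; limma adjusted p = 0.938). Tfb2m, its partner in transcription, differed by -0.25 ± 0.18 (SE).

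All 13 TCA cycle genes were measured, with a median of -0.08, 10 negative and 0 at an unadjusted p under 0.05, and the lowest p belonged to Suclg2 (-0.21 ± 0.20, SE) and Idh3a (-0.17 ± 0.18, SE). Of 15 symbols searched for as carriers and partners, 14 were measured with a median of 0.05 and 6 negative. Under quantile scaling this turned to -0.04 and 10 negative. The symbol without a probe, Atp5if1, is another name of Atpif1, which was measured. Dld, the dehydrogenase subunit shared by the pyruvate and oxoglutarate complexes, was at 3.30, 3.51 and 3.55 against 3.85, 3.90 and 3.63, separated without overlap (-0.34 ± 0.18, SE; limma adjusted p = 0.938). Higd1a, a small partner of complex IV, differed by -0.24 ± 0.20 (SE), with overlapping groups. The mitochondrially encoded subunits had no named probe and were not analysed here.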

How the data were processed

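Per the file headers, the deposited intensity values (linear processed, median and local background signals) came from Agilent Feature Extraction 11.0.1.1 on design 026655; the submitters' processing notes name 10.5.1.1. The deposited flags (above background, saturated, outlier) are other values. How the authors made their deposited table of log2 values is not stated in the sources used here; it had equal quantiles on all arrays and served as an alternative.

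Here log2 of the processed signal had each array's 75th percentile over non-control probes subtracted; control and outlier spots (180 to 240 per array) were left out and spots of a probe averaged. Accessions were named through a RefSeq gene table of GRCm38.p6 (69.1% of probes). Groups were compared with limma 3.58.1 (R 4.3.3; prior degrees of freedom 5.02), two-sided, adjusting over every kept probe by Benjamini-Hochberg. The number of arrays limits precision. On simulated data of 25180 probes, 64% of 1.5-fold and 94% of 2-fold changes reached an unadjusted p under 0.05, and 0% and 24% an adjusted one.

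Members and lists were chosen with earlier results of these data known. The genes described are, per complex, the 3 with the smallest p (complexes I, III, IV, V), complex II, Cycs, isoform pairs, up to 4 genes whose probes disagree most, and up to 2 per other list with the smallest p plus Ppargc1a, Esrra, Nrf1, Gabpa, Tfam and Cyc1. A few others are named for their role. The labels do not say whether replicate numbers pair the samples, and the main fit used no pairing. Same-numbered deviations correlated at 0.06, 0.55 and 0.21, and differently numbered ones at between -0.50 and 0.36. Whether the numbers pair samples was not settled. In both groups the replicate number coincides with the barcode position in the headers, so number and position cannot be told apart. Protein sequences were not used here. The values of 1 gene are not reported here.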

Additional observations from a re-analysis of the deposited data

How the results depend on the processing

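The count of members past the adjusted limma threshold was 0 under all 20 alternatives. At an unadjusted p under 0.05, array weights (between 0.34 and 5.81) gave 5 of the 84 members. This stood beside a larger share of all kept probes, 5994 of 25220. The 5 were Atp5k, Ndufa4l2, Ndufv2, Sdhc and Sdhd, all lower (limma adjusted p 0.147 to 0.208). No filter on dim probes gave 1 member (Cox8c, below background), beside 1531 of 39429 probes. The others gave 0. Members lower numbered 83 under median scaling, where the complex IV median was -0.24 and that of all named genes -0.16, and 17 to 80 with 1 array left out. The members' median ran from -0.25 (median scaling) to 0.09 (without sleep fragmented replicate 2). Under all 21 settings 10 members were lower: Atp5e, Atp5pb, Cox6b2, Ndufa9, Ndufs1, Ndufs4, Ndufs5, Ndufs8, Sdha and Sdhd. The settings reuse the same 6 arrays and several leave the differences unchanged, so shared signs are partly built in. The same count over all named genes is not given here.

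Members lower without overlap numbered 9 under quantile scaling and in the authors' table, 11 under median scaling and 3 with normexp. They numbered 2 when centred on the members, beside 1.22% of all named genes. With 1 array left out, where separation comes more readily, they numbered 0 to 25 (25 without sleep fragmented replicate 1). For median scaling, normexp and the arrays left out, shares over all named genes are not given here, so these counts cannot be set against them. Members higher without overlap numbered 1 without the filter and 0 to 3 with 1 array left out. When centred on the members they numbered 1, beside 762 of 14548 named genes. Without replicate 2 of both groups, where separation comes more readily still, 5 were lower and 5 higher. Among all probes, the count at an unadjusted p was 735, and became 1123 with median scaling, 1531 without the filter, 5994 with array weights and 450 to 3012 with 1 array left out; past the adjusted threshold 0 became 3 with normexp, 53 with array weights and 5 without replicate 2 of both groups. The replicate block gave 2018 and 4 probes and changed no member's call. Barcode position in the headers coincides with replicate number, so a block by position is the same fit. The cause of these shifts was not tested. Centring on the members, the percentile over spots and the removal of replicate 2 of both groups were chosen after seeing the data. Normexp used median spot signals, and arrays were left out under 75th percentile scaling only.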
